A study of Mus musculus with 20 samples.

Results

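The hypoxia response controlled by hypoxia-inducible factor (HIF) was followed through 10 genes: Hif1a, Egln1, Egln3, Ankrd37, Vegfa, Bnip3, Ddit4, Ndrg1, P4ha1 and Kdm3a. They were taken by symbol, and each had 1 row among the 26099 genes of the acute table and among the 26486 genes of the survival table. All 10 passed the filter on low values in both tables, where 16363 and 16136 genes were tested. The 20 libraries hold polyadenylated RNA from spleens of sub-lethally irradiated mice that had received Acly conditional knockout T-ALL cells, a mouse T-cell acute lymphoblastic leukemia, by intravenous injection. Acly encodes ATP-citrate lyase, which makes cytosolic acetyl-CoA from citrate. The KO acute group (n = 4) was given tamoxifen, 3 mg for each mouse dissolved in corn oil, once the mice were overtly leukemic, and the WT acute group (n = 6) was given corn oil without tamoxifen. Spleens of both groups were removed 72 h after treatment. The KO survival group (n = 5) was given the same dose of tamoxifen 48 h after transplantation and the WT survival group (n = 5) corn oil at that time, and both were followed to the humane endpoint. All 4 groups carry the conditional allele, so tamoxifen and the loss of Acly cannot be told apart. Spleen suspensions were freed of red cells by lysis and no sort for leukemic cells is named, so each library holds RNA of leukemic and host cells. The sources used here do not give the driver of the recombinase, the strain and age of the hosts or the number of independent leukemias. Separate mice are not stated for the libraries of a group, so the p-values measure only the spread between libraries.

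HIF is a transcription factor of an oxygen-sensitive alpha subunit, such as the product of Hif1a, and a stable partner, ARNT. When oxygen is available, prolyl hydroxylases encoded by the Egln genes mark the alpha subunit for degradation through the VHL ubiquitin ligase. When oxygen is short, or the hydroxylases are otherwise inhibited, the alpha subunit persists, binds hypoxia response elements and raises genes of glycolysis, angiogenesis, mitophagy and collagen modification, along with several of its own inhibitors. Control of the alpha subunit is largely at the protein level, and neither HIF protein nor oxygen was measured in the data used here.

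Totals of normalized counts were 19432235 to 20731983 per acute library and 19998354 to 21623571 per survival library. These are totals after scaling and do not give the depth in reads. Acly had 5226, 6228, 6402 and 4823 normalized counts in the KO acute libraries, against 7406 to 8280 in the 6 WT acute libraries. At the survival endpoint Acly had 4017, 2174, 3523, 3025 and 2718 normalized counts in KO libraries, against 7396 to 8825 in WT libraries. The groups did not overlap in either arm, and Acly RNA was at 73.3% of WT in KO acute spleens and at 39.2% of WT in KO survival spleens, with the deleted exons not named in the labels. The acute fall of Acly (log2 fold change -0.46, SE 0.0747, adjusted p = 0.000866) was not called when libraries were scaled to T-lineage genes (-0.09, SE 0.129, adjusted p = 0.588). With a marker score of other cells as covariate it was -0.77 (SE 0.147, adjusted p = 0.268), where limma called 0 of all genes. That score did not overlap between KO and WT acute libraries, so the fit with it cannot decide whether Acly fell. T-lineage markers were present in all libraries: the summed normalized counts of 7 T-lineage genes were 69760 to 94118 in KO acute libraries and 101911 to 111428 in WT acute libraries, all 7 called lower. All 5 immature thymocyte markers were called lower too, with sums of 42272 to 57469 in KO acute and 71671 to 77579 in WT acute libraries. Markers of other cells moved the other way in the acute arm. All 10 neutrophil markers were called higher, with sums of 162409 to 559903 in KO acute and 11260 to 43583 in WT acute libraries. All 10 monocyte and macrophage markers were called higher as well, with sums of 22212 to 65616 in KO acute and 4383 to 7705 in WT acute libraries. The 8 B-cell and 6 tested NK-cell markers were called higher, as were 3 of 5 tested dendritic-cell markers, while limma called 0 of 8 erythroid markers (2 at an unadjusted p under 0.05) and 1 of 7 tested endothelial and stromal markers. No marker of any list was at 0 in every acute library. In these bulk samples fewer cells of a type and less RNA per cell cannot be told apart. A score of other cell types, the mean standardized level of 6 marker lists, was 0.16, 1.43, 1.30 and 0.69 SD units in KO acute libraries 1 to 4 and -0.85 to -0.38 in WT acute libraries. Each marker was standardized within its own arm, so the size of the score is not compared between the arms. Over the survival libraries the score ranged from -0.32 to 0.59 in KO and from -0.31 to 0.54 in WT libraries, and no marker was called. At an unadjusted p under 0.05 were 3 of 8 B-cell, 3 of 10 monocyte and macrophage and 4 of 6 tested endothelial and stromal markers. So were 1 of 7 T-lineage and 1 of 5 immature thymocyte markers, beside 8.74% of all genes. The endothelial and stromal list is not part of the score.

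In the acute arm, 8 of the 10 genes changed, 6 lower and 2 higher in KO spleens. The prolyl hydroxylase genes Egln1 and Egln3, Hif1a, Ankrd37, P4ha1 and Kdm3a were lower, by 0.18 to 0.98 on the log2 scale. Vegfa and Bnip3 were higher, by 1.49 and 1.1 on the log2 scale. Ddit4 and Ndrg1 did not pass. A gene was called when limma's adjusted p (Benjamini-Hochberg over all genes tested) was under 0.05, and log2 fold changes are of normalized count + 1, KO over WT. Of all genes tested in this arm 31.4% were called, 14.7% lower and 16.7% higher. At an unadjusted p under 0.05 there were 9 of the 10 genes, and 41.6% of all genes. The median log2 fold change was -0.25 over the 10 genes and -0.02 over all genes tested. KO libraries lay wholly below WT libraries for Egln1, Egln3, Ankrd37 and P4ha1 and wholly above them for Vegfa and Bnip3. Over all genes tested, the groups did not overlap for 22.7%, with KO below WT for 9.94% and above it for 12.7%.

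**Figure D1:**
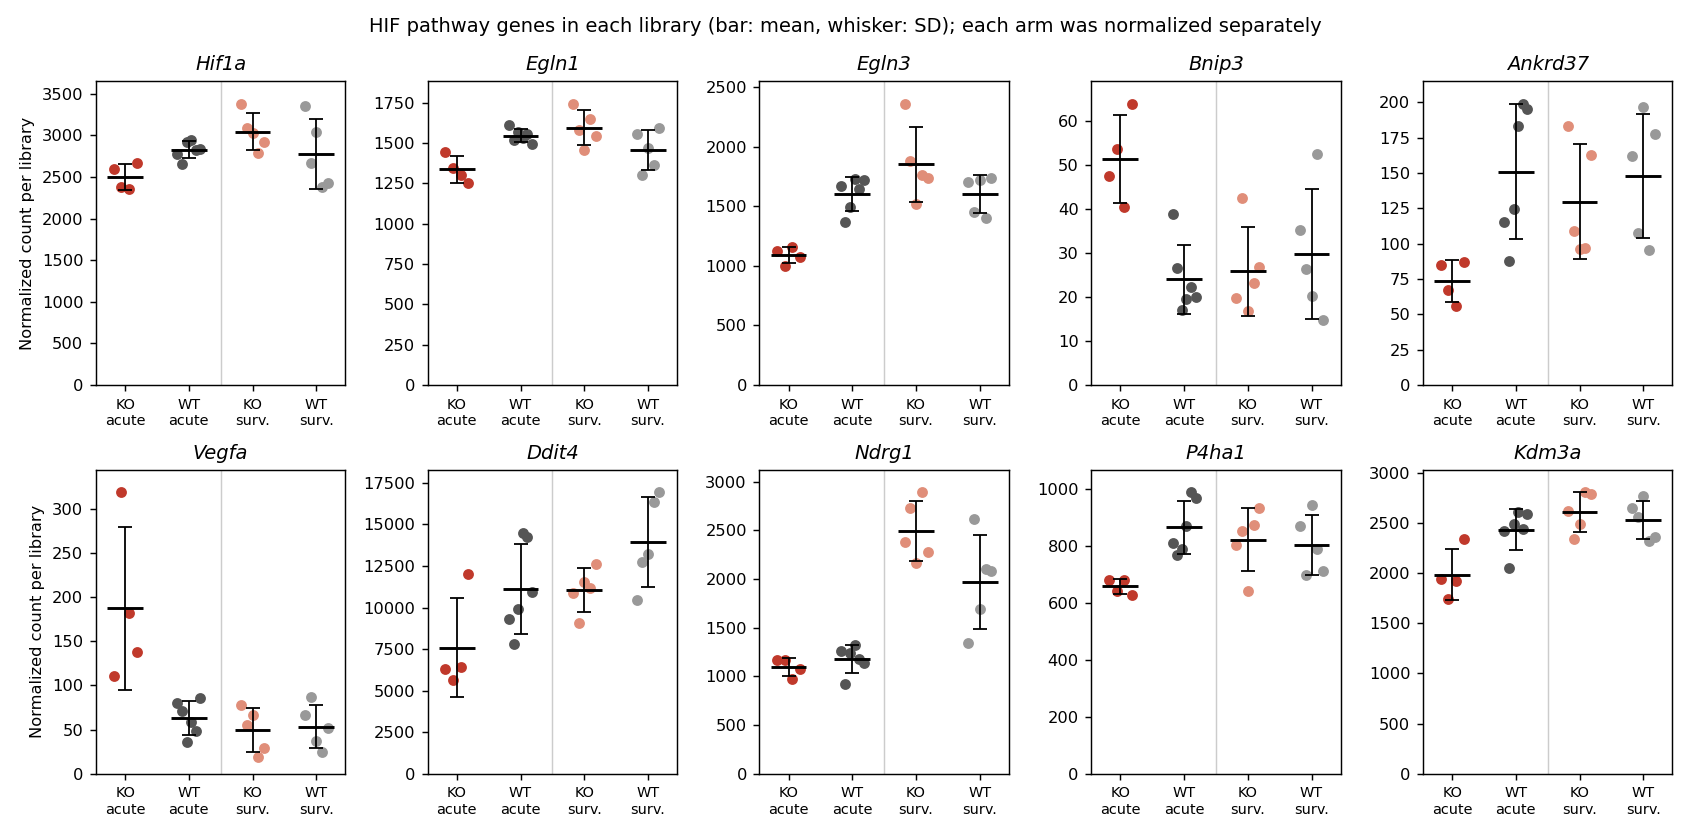
Normalized count of each of the 10 HIF pathway genes in every library, with KO left of WT in the acute and the survival arm; points are libraries, horizontal bars means and whiskers SDs, and each arm was normalized separately. KO acute libraries lie below all WT acute libraries for Egln1, Egln3, Ankrd37 and P4ha1 and above them for Bnip3 and Vegfa, while KO and WT survival libraries overlap for all 10 genes.

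Hif1a, the alpha subunit itself, had 2600, 2384, 2356 and 2665 normalized counts in the KO acute libraries. The 6 WT acute libraries had 2661 to 2943, with a median of 2833. KO libraries 1 to 3 were below every WT library and KO library 4 lay just above the lowest WT library. The means were 2501 ± 154 in KO and 2827 ± 102 in WT (SD, n = 4 and 6), a log2 fold change of -0.18 (SE 0.0494, adjusted p = 0.0171). This small fall was not called without KO acute library 2 (-0.16, adjusted p = 0.0548) or library 3 (-0.15, adjusted p = 0.0634). Libraries 2 and 3 were those with the lowest Hif1a values and with the highest scores of other cell types. The part of those cells in the result was not tested.

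Egln1 and Egln3 encode prolyl hydroxylases that target HIF alpha subunits, and both are themselves known targets of HIF, Egln3 the more inducible. Egln3 had 1125, 999, 1161 and 1079 normalized counts in KO acute libraries, against a lowest value of 1366, a median of 1656 and a highest value of 1728 in WT acute libraries. Every KO library was below every WT library. The means were 1091 ± 70.0 in KO and 1604 ± 143 in WT, which puts Egln3 at 68.0% of WT (log2 fold change -0.55, SE 0.0735, adjusted p = 0.000225). This was the smallest adjusted p among the 10 genes. Egln1 had 1447, 1345, 1301 and 1253 normalized counts in KO acute libraries and 1496 to 1609, median 1543, in WT acute libraries. The groups stood apart again, with a smaller step: 1337 ± 82.8 in KO and 1546 ± 40.3 in WT (log2 fold change -0.21, SE 0.0494, adjusted p = 0.00708). The fall of Egln3 was called whichever single library was left out, at -0.60 to -0.51, and that of Egln1 likewise, at -0.25 to -0.18.

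Ankrd37, an ankyrin-repeat gene known as a strongly hypoxia-induced HIF target, had the largest fall of the 10. Its normalized counts were 84.8, 67.4, 55.8 and 86.9 in KO acute libraries, against 87.9 to 199 in WT acute libraries with a median of 154. The groups did not overlap, although WT library 2 (87.9) was only just above KO library 4 (86.9). The means were 73.7 ± 14.8 in KO and 151 ± 47.6 in WT (log2 fold change -0.98, SE 0.243, adjusted p = 0.00968). P4ha1, the catalytic subunit of collagen prolyl 4-hydroxylase, had 682, 643, 679 and 628 normalized counts in KO acute libraries and 769 to 989, median 840, in WT acute libraries. Its KO values were close together and all below WT, at 658 ± 26.5 in KO and 866 ± 93.9 in WT (log2 fold change -0.39, SE 0.0799, adjusted p = 0.00338). Kdm3a, a histone H3 lysine 9 demethylase and HIF target, had 1943, 1741, 1915 and 2335 normalized counts in KO acute libraries and 2048 to 2608, median 2465, in WT acute libraries. KO libraries 1 to 3 were below all WT libraries, while KO library 4 lay within the WT range. The means were 1983 ± 251 in KO and 2432 ± 203 in WT (log2 fold change -0.30, SE 0.0850, adjusted p = 0.0194), and the fall was not called without KO library 2 (adjusted p = 0.0657) or KO library 3 (adjusted p = 0.0557).

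Vegfa and Bnip3 went the other way. Vegfa encodes vascular endothelial growth factor A, the main angiogenic ligand among HIF targets. Its normalized counts were 111, 318, 181 and 138 in KO acute libraries, against 36 to 85.1 in WT acute libraries with a median of 65.2. All KO libraries were above all WT libraries, and KO library 2 stood highest. The means were 187 ± 92.2 in KO and 63.3 ± 19.0 in WT, 2.81-fold higher by the log2 fit (log2 fold change 1.49, SE 0.305, adjusted p = 0.0033). The order of the 4 KO libraries by Vegfa was also their order by the score of other cell types. Bnip3 encodes a mitochondrial outer-membrane protein that promotes mitophagy. It had 47.5, 53.6, 40.4 and 63.9 normalized counts in KO acute libraries, against 17 to 38.7 in WT acute libraries with a median of 21.1. The KO values were all higher, with a narrow gap between KO library 3 (40.4) and WT library 1 (38.7). The means were 51.3 ± 9.94 in KO and 24.0 ± 7.90 in WT (log2 fold change 1.1, SE 0.250, adjusted p = 0.00603). Bnip3 was highest in KO library 4, whose score of 0.69 was below those of KO libraries 2 and 3 and above all WT acute libraries (at most -0.38). The part of other cell types in the values of Vegfa and Bnip3 was not tested.

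Ddit4 and Ndrg1 did not pass in the acute arm. Ddit4 encodes REDD1, an inhibitor of mTORC1 signaling that is induced by hypoxia, DNA damage and glucocorticoids. It had 6308, 5633, 6412 and 11993 normalized counts in KO acute libraries and 7820 to 14468, median 10409, in WT acute libraries. KO libraries 1 to 3 were below all WT libraries and KO library 4 lay inside the WT range (log2 fold change -0.58, SE 0.218, adjusted p = 0.0606). Without KO library 4 the value was -0.83 (adjusted p = 0.00491), and without WT library 2, the lowest WT library, it was -0.68 (adjusted p = 0.0358). Ndrg1, a stress-responsive gene induced by hypoxia and iron depletion, had 1173, 1168, 975 and 1080 normalized counts in KO acute libraries and 922 to 1327, median 1209, in WT acute libraries. Its groups overlapped over most of their range (log2 fold change -0.09, SE 0.0953, adjusted p = 0.495), with a 95% interval of -0.30 to 0.11.

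**Figure D2:**
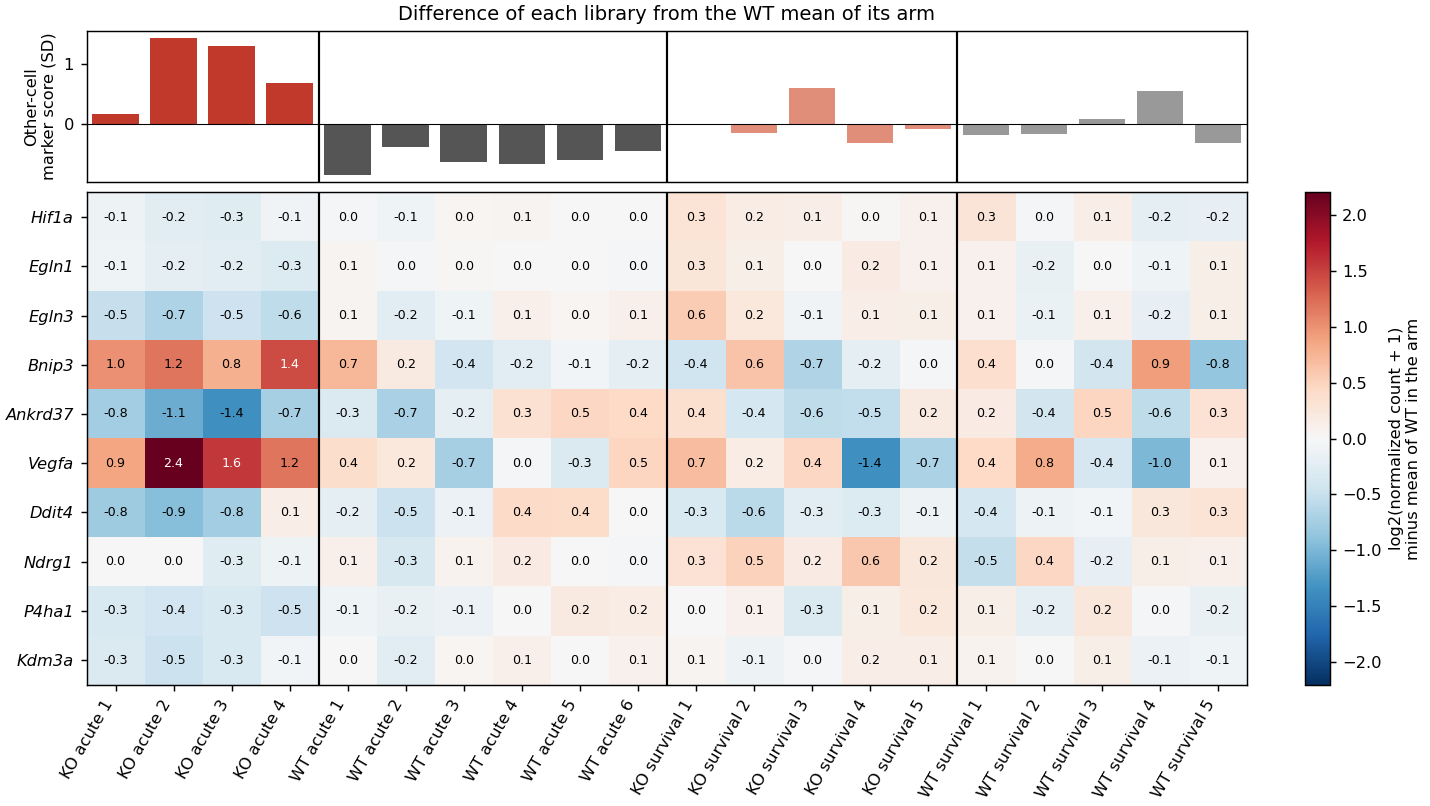
Upper panel: score of other cell types in each library in SD units, standardized within each arm, so that sizes are not comparable between the arms. Lower panel: log2(normalized count + 1) of each gene in each library less the mean of the WT libraries of the same arm, red above and blue below that mean; KO stands left of WT in each arm. KO acute libraries 2 and 3 have the highest scores (1.43 and 1.30), Vegfa and Bnip3 are red in all 4 KO acute libraries, and no gene separates KO from WT survival libraries.

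The promoter windows of the 4 genes with the largest absolute log2 fold changes among those called in the acute arm are shown because HIF acts through short elements near its targets: Vegfa and Bnip3, which rose, and Ankrd37 and Egln3, which fell. The windows span 250 bases before to 50 bases after the RefSeq gene start and are given on the gene's strand in build GRCm38.p6. The expression tables were made on GRCm39, so positions are RefSeq's and not the tables'. Capitals mark the core of the hypoxia response element, ACGTG or GCGTG, on either strand (CACGT or CACGC on the strand shown where the match is in reverse). The core overlaps the E-box CACGTG, which other factors bind too. Windows lie at chr12:54203825-54204124 (minus strand) for Egln3, chr8:45999801-46000100 (minus strand) for Ankrd37, chr7:138909457-138909756 (minus strand) for Bnip3 and chr17:46032328-46032627 (minus strand) for the first of the Vegfa windows.
Egln3: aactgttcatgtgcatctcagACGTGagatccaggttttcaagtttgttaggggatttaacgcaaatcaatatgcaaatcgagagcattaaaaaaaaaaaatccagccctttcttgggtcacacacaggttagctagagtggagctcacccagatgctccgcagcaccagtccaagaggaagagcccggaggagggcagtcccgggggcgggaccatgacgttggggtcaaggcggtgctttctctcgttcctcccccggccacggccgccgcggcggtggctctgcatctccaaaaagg
Ankrd37: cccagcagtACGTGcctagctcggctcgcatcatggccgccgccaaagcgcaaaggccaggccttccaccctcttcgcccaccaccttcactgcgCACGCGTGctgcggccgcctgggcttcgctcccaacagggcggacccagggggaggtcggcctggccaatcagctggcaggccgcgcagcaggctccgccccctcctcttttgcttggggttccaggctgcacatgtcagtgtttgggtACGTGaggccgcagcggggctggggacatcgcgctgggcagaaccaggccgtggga
Bnip3: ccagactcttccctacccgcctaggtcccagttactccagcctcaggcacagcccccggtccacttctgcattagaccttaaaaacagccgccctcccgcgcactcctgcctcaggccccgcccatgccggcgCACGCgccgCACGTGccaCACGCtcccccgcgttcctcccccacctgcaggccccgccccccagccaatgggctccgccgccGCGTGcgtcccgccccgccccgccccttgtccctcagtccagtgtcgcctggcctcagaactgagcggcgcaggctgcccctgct
Vegfa: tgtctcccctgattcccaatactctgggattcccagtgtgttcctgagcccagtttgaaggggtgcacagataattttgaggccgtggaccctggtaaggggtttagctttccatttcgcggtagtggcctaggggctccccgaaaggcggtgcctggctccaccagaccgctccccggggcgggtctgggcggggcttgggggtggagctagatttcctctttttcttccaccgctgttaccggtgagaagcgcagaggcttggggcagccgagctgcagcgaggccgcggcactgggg
The Egln3 window held 1 core match, 229 bases before the start, and the Ankrd37 window held 4. The Bnip3 window held 5, of which an overlapping pair on opposite strands forms 1 CACGTG. The Vegfa window shown held 0, which says only that these letters are not in it, and the other Vegfa window in the table, at chr17:46025114-46025413 (minus strand), held 2. Of the 10 genes 9 were matched in the RefSeq table, with 12 windows, and Ndrg1 was not among them. All 9 had a window with the core, and 9 of the 12 windows held it. Vegfa counts here only through its other window, which lies downstream of the window shown on the gene's strand. The core was found in 43.8% of all 32851 windows and the CACGTG in 7.15%. Genes that rose and genes that fell both carried matches, which are a description of letters and not of binding.

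Scale bears on the small falls. T-lineage genes averaged -0.37 (log2, KO minus WT) in the acute arm, and scaling each library to them moved the median of all genes tested to 0.34, with 47.8% of all genes called higher and 0.746% lower. On that scale Ankrd37 was still lower (-0.62, adjusted p = 0.046), Vegfa (1.86, adjusted p = 0.00155) and Bnip3 (1.46, adjusted p = 0.00116) were higher, and Hif1a turned to 0.19 (adjusted p = 0.0317). Egln3 (-0.18, adjusted p = 0.124) and P4ha1 (-0.02, adjusted p = 0.877) were then not called. Egln1 (0.16, adjusted p = 0.137) and Kdm3a (0.07, adjusted p = 0.527) changed sign and were not called either. Before that scaling the 5 immature thymocyte markers fell further than the 7 T-lineage genes (median log2 fold changes -0.62 and -0.38). Scaling to those 5 markers was not run. Without KO libraries 2 and 3, which had the highest scores of other cell types, 3 of the 10 genes and 13.1% of all genes were called, the 3 being Egln3 (-0.54, adjusted p = 0.00286), P4ha1 (-0.40, adjusted p = 0.0308) and Bnip3 (1.22, adjusted p = 0.0349). Vegfa was then 1.02 (adjusted p = 0.0533), Ankrd37 -0.74 (adjusted p = 0.131), Egln1 -0.20 (adjusted p = 0.0668), Hif1a -0.10 (adjusted p = 0.245) and Kdm3a -0.19 (adjusted p = 0.24). When the marker score entered the model as a covariate, limma called 0 of the 10 genes and 0 of all genes, with 2 of the 10 at an unadjusted p under 0.05. In that fit Vegfa was 0.11 (SE 0.573), Bnip3 1.39 (SE 0.597), Ankrd37 -0.41 (SE 0.548) and Egln3 -0.41 (SE 0.169). KO and WT acute libraries did not overlap in that score, so this fit can hardly tell KO and the score apart.

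A ratio within each library does not depend on how libraries were scaled, and this measure was chosen after the values were seen. Relative to Hif1a, Egln3 stood at 40.5 to 49.3% in KO acute libraries and at 51.3 to 60.6% in WT acute libraries, without overlap. Ankrd37 stood at 2.37 to 3.26% of Hif1a in KO and at 3.30 to 7.05% in WT acute libraries, also without overlap and with a narrow gap. Over all genes tested, the ratio to Hif1a lay wholly below WT for 2.11% and wholly above it for 19.0%. Vegfa was at 4.27 to 13.4% of Hif1a in KO and 1.23 to 3.00% in WT acute libraries, and Bnip3 at 1.71 to 2.40% in KO and 0.583 to 1.4% in WT. The ratios of the other 5 genes overlapped between the groups. For the survival libraries the ratios of all 9 genes to Hif1a overlapped, where 1.15% of genes lay wholly below WT and 0.13% wholly above it.

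In the survival arm none of the 10 genes was called by limma. At an unadjusted p under 0.05 there were 2, Ddit4 and Ndrg1, and 8.74% of all genes passed that mark. After adjustment 0.0124% of all genes were called, 2 genes of which Acly was one, with 0.0062% higher and 0.0062% lower. KO and WT survival libraries overlapped for all 10 genes, and 2.01% of all genes did not overlap, 1.21% with KO above WT and 0.793% with KO below it. The median log2 fold change was 0.04 over the 10 genes and 0.01 over all genes tested. Without WT survival library 4 the number of genes called over all genes was 24, and the number among the 10 was still 0.

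Hif1a had 3383, 3085, 3031, 2792 and 2925 normalized counts in KO survival libraries and 3355, 2672, 3041, 2381 and 2430 in WT survival libraries. Each KO library lay inside the WT range except the highest (log2 fold change 0.14, SE 0.0925, adjusted p = 0.687). Egln3 had 2364, 1880, 1517, 1768 and 1741 in KO survival libraries and 1705, 1449, 1720, 1406 and 1740 in WT survival libraries. Of the 5 KO libraries 4 were above all WT libraries, library 5 only just, and the difference did not pass (log2 fold change 0.20, SE 0.107, adjusted p = 0.634). Egln1 had 1745, 1579, 1457, 1646 and 1543 in KO survival libraries and 1556, 1300, 1468, 1363 and 1594 in WT survival libraries. The groups overlapped (log2 fold change 0.13, SE 0.0712, adjusted p = 0.635), and the 95% interval was -0.02 to 0.29, against -0.32 to -0.10 in the acute arm.

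Ndrg1 had the highest survival fold change of the 10, with 2384, 2730, 2168, 2892 and 2275 normalized counts in KO survival libraries and 1339, 2621, 1696, 2100 and 2081 in WT survival libraries. All KO libraries were above 4 of the 5 WT libraries, and WT library 2 lay within the KO range (log2 fold change 0.37, SE 0.149, unadjusted p = 0.0281, adjusted p = 0.488). Ddit4 had the lowest, with 10851, 9065, 11518, 11195 and 12650 normalized counts in KO survival libraries and 10442, 12720, 13236, 16381 and 16938 in WT survival libraries. All KO libraries were below 4 of the 5 WT libraries, and WT library 1 lay within the KO range (log2 fold change -0.32, SE 0.125, unadjusted p = 0.0233, adjusted p = 0.461).

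The genes with the largest acute changes spread widely in the survival arm. Vegfa had 78.0, 54.6, 66.6, 18.4 and 29.6 normalized counts in KO survival libraries and 66.2, 86.8, 37.2, 24.1 and 52.1 in WT survival libraries. Both groups covered much the same span, and the 95% interval of the log2 fold change of -0.15 (adjusted p = 0.937) was -1.04 to 0.74. Bnip3 had 19.7, 42.4, 16.7, 23.2 and 26.8 in KO survival libraries and 35.3, 26.3, 20.3, 52.4 and 14.7 in WT survival libraries. Its groups overlapped throughout (log2 fold change -0.14, 95% interval -0.88 to 0.60, adjusted p = 0.927). Ankrd37 had 183, 109, 95.9, 97.0 and 163 in KO survival libraries and 162, 108, 197, 95.9 and 177 in WT survival libraries, again with overlap (log2 fold change -0.19, 95% interval -0.71 to 0.33, adjusted p = 0.843). P4ha1 ranged from 643 to 935 in KO and from 698 to 944 in WT survival libraries (log2 fold change 0.03, adjusted p = 0.954), and Kdm3a from 2336 to 2804 in KO and from 2314 to 2768 in WT (log2 fold change 0.04, adjusted p = 0.877). Intervals this wide for Vegfa, Bnip3 and Ankrd37 do not show that their levels were equal in the groups.

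**Figure D3:**
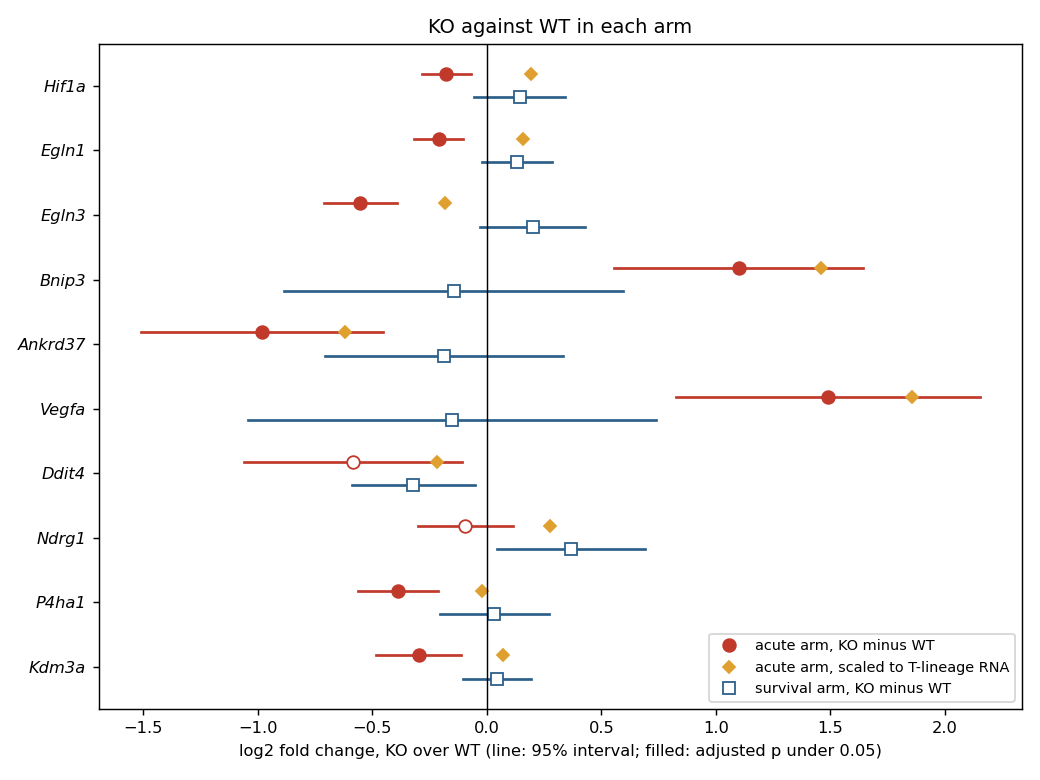
Log2 fold change, KO over WT, of each of the 10 genes in the acute arm (red circles) and the survival arm (blue squares), with 95% intervals as lines; symbols are filled where the adjusted p is under 0.05, and orange diamonds give the acute value after scaling to T-lineage RNA, without an interval. Acute values reach from -0.98 (Ankrd37) to 1.49 (Vegfa), survival values from -0.32 (Ddit4) to 0.37 (Ndrg1).

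The arms were set against each other by subtracting the acute from the survival fold change in 1 model of the 20 libraries, for the 15673 genes that had been tested in each table. The difference was called for 7 of the 10 genes, 5 higher and 2 lower, and for 20.2% of all genes, 9.39% higher and 10.9% lower. Egln3 had the largest positive difference among those called, 0.75 (SE 0.137, adjusted p = 0.000566), followed by P4ha1 (0.42, SE 0.142, adjusted p = 0.0411), Egln1 (0.34, SE 0.0852, adjusted p = 0.00719), Kdm3a (0.34, SE 0.112, adjusted p = 0.0362) and Hif1a (0.32, SE 0.110, adjusted p = 0.0438). Vegfa (-1.64, SE 0.553, adjusted p = 0.0405) and Bnip3 (-1.24, SE 0.435, adjusted p = 0.0481) had negative differences. Ankrd37 (0.79, adjusted p = 0.13), Ndrg1 (0.46, adjusted p = 0.0932) and Ddit4 (0.26, adjusted p = 0.537) were not called. The differences of Egln1 and Egln3 were called whichever single library was left out, at adjusted p-values up to 0.0189 and 0.00204. Those of Hif1a, Vegfa, Bnip3, P4ha1 and Kdm3a were lost without 12, 10, 16, 13 and 11 of the 20 libraries, at adjusted p-values up to 0.0949, 0.11, 0.092, 0.0776 and 0.0998. Of the 10 genes 2 to 4 were called without KO acute library 2 or 3, WT acute library 3, 4, 5 or 6, KO survival library 1, 4 or 5, or WT survival library 2, 4 or 5. Scaled to T-lineage RNA, where the difference of Hif1a (-0.07), Egln1 (-0.04) and Kdm3a (-0.04) changed sign, 3 remained called: Egln3 higher, and Vegfa and Bnip3 lower. On that scale the difference was called higher for 0.485% of all genes and lower for 36.1%.

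Other parts of the pathway were read from 3 lists. Among the other HIF subunits and the oxygen-sensing machinery, 0 of 10 tested genes were called higher and 2 lower in KO acute spleens, with a median log2 fold change of 0.01 and 3 genes at an unadjusted p under 0.05. Over all genes tested 16.7% were called higher and 14.7% lower. Cul2, the scaffold of the VHL ubiquitin ligase, was lower, with 281 ± 40.1 normalized counts in KO and 376 ± 24.3 in WT (log2 fold change -0.43, SE 0.0981, adjusted p = 0.00648). Elob, elongin B of the same ligase, was lower by a small step, with 1883 ± 43.2 in KO and 2093 ± 99.7 in WT (log2 fold change -0.15, SE 0.0464, adjusted p = 0.0268). Cul2 was -0.06 (adjusted p = 0.654) when scaled to T-lineage RNA and -0.32 (adjusted p = 0.061) without both KO libraries 2 and 3. Elob was 0.22 (adjusted p = 0.0511) when scaled to T-lineage RNA, and it was not called without KO library 3 or 4 or WT library 2 or 3 (adjusted p = 0.0706, 0.0573, 0.0515 and 0.0561). The list had 0 genes called without both KO libraries 2 and 3, where 13.1% of all genes were called. After T-lineage scaling 6 of its 10 genes were called higher and 0 lower, beside 47.8% and 0.746% of all genes. Of its 10 genes tested in the survival arm 0 were called by limma, 2 at an unadjusted p under 0.05.

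The glycolytic HIF targets parted in the acute arm. Of 15 tested, 8 were called higher and 3 lower, with a median of 0.35, beside 16.7% higher and 14.7% lower over all genes. After T-lineage scaling 11 were called higher and 0 lower, on a scale where 47.8% of all genes were called higher and 0.746% lower. The largest rise was that of Slc16a3, the lactate exporter MCT4, with 881 ± 453 normalized counts in KO and 106 ± 25.3 in WT acute libraries (log2 fold change 2.93, SE 0.275, adjusted p = 3.84e-05). Pfkfb4, an enzyme that makes the glycolytic activator fructose 2,6-bisphosphate, had 611 ± 322 in KO and 78.7 ± 30.8 in WT (log2 fold change 2.87, adjusted p = 9.53e-05). Hk2, hexokinase 2, had 1066 ± 433 in KO and 465 ± 58.3 in WT (log2 fold change 1.12). The glucose transporter gene Slc2a3 had 2261 ± 838 in KO and 1009 ± 22.7 in WT (1.09), the glycogen synthase gene Gys1 964 ± 324 in KO and 507 ± 31.1 in WT (0.87), and Pfkfb3, of the same family as Pfkfb4, 730 ± 186 in KO and 413 ± 66.2 in WT (0.80). Without KO libraries 2 and 3 the values were 2.34 for Slc16a3, 2.27 for Pfkfb4, 0.65 for Hk2, 0.69 for Slc2a3, 0.49 for Gys1 and 0.54 for Pfkfb3, with 7 genes of the list called higher and 2 lower, beside 8.64% and 4.42% of all genes. The 3 genes called lower, named after their values were seen, were Pdk1, the kinase that holds pyruvate out of the mitochondrial citric acid cycle (-0.44, adjusted p = 0.000865), the triose phosphate isomerase gene Tpi1 (-0.37, adjusted p = 0.00103) and the lactate dehydrogenase gene Ldha (-0.20, adjusted p = 0.00993). With the marker score as covariate Slc16a3 was 1.13, Pfkfb4 0.85, Hk2 -0.11, Slc2a3 0.03, Gys1 -0.06 and Pfkfb3 0.08. That fit can hardly tell KO and the score apart. All 10 neutrophil and all 10 monocyte and macrophage markers rose in the same libraries, and their part in the 8 rises was not tested. Of the 15 genes 0 were called by limma in the survival arm, 1 at an unadjusted p under 0.05.

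Of 26 tested genes in the list of other HIF targets (Pgf, Edn1, Nos2 and Stc2 were too low and Epo was not analysed here) 6 were called higher and 6 lower in the acute arm, with a median of 0.02, beside 16.7% and 14.7% of all genes. After T-lineage scaling 10 were called higher and 3 lower, beside 47.8% and 0.746% of all genes. Cited2, which competes with HIF for the coactivators p300 and CBP, had 747 ± 188 normalized counts in KO and 307 ± 50.6 in WT acute libraries (log2 fold change 1.26, SE 0.160, adjusted p = 0.000162). Plod1, a collagen lysyl hydroxylase gene, had 219 ± 52.0 in KO and 102 ± 20.9 in WT (1.09, adjusted p = 0.00121), and Ero1a, an endoplasmic reticulum oxidase gene, 1797 ± 472 in KO and 954 ± 34.9 in WT (0.88, adjusted p = 0.000369). Hmox1, heme oxygenase 1, which macrophages express highly, had 978 ± 404 in KO and 497 ± 113 in WT with overlap (0.91, adjusted p = 0.0159), and it was not called without KO library 2 (adjusted p = 0.0532), KO library 3 (0.0546) or both (0.40, adjusted p = 0.251). The falls included Hilpda, a hypoxia-inducible inhibitor of lipid breakdown at lipid droplets, with 166 ± 19.7 in KO and 299 ± 23.8 in WT (-0.85, SE 0.0998, adjusted p = 9.62e-05). Adm, the gene of the vasodilator peptide adrenomedullin, had 71.2 ± 17.6 in KO and 118 ± 9.02 in WT (-0.75, adjusted p = 0.00646). Hilpda and Adm were still called lower without both KO libraries 2 and 3 (-0.73 and -0.57) and on the T-lineage scale (-0.48, adjusted p = 0.00157, and -0.39, adjusted p = 0.0489). The third gene of this list called lower on the T-lineage scale, named after its value was seen, was the lysyl hydroxylase gene Plod2 (-0.27, adjusted p = 0.0227). Of 23 tested in the survival arm 0 were called by limma, 6 at an unadjusted p under 0.05, and Hilpda (-0.36, adjusted p = 0.431) and Adm (-0.35, adjusted p = 0.461) were not.

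**Figure D4:**
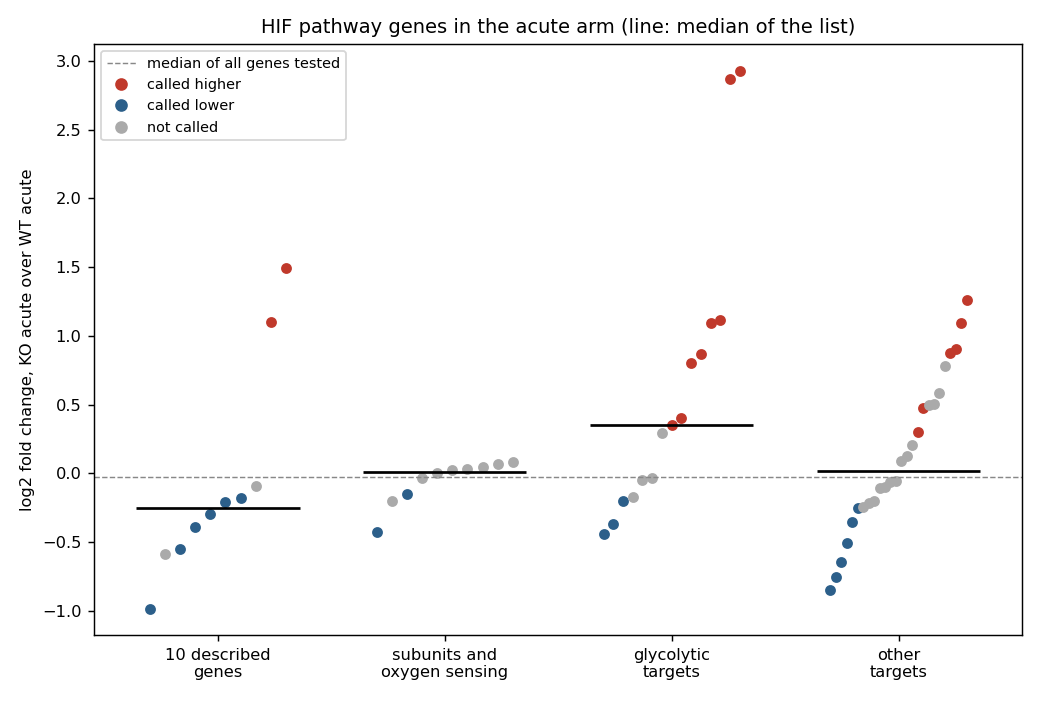
Log2 fold change, KO acute over WT acute, of each tested gene in the 10 described genes and the 3 other HIF pathway lists; red points were called higher, blue points lower, grey points were not called, black lines are list medians and the dashed line is the median of all genes tested. The list medians are -0.25, 0.01, 0.35 and 0.02, and the highest points are the glycolytic targets Slc16a3 (2.93) and Pfkfb4 (2.87).

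The 10 genes did not share 1 profile across the libraries. Log2 values were centred and scaled within each arm, and pairs of genes were compared by the root-mean-square difference over the 20 libraries, in SD units. The nearest pair among the 10 was Egln1 and Egln3 (0.524), followed by Hif1a and Egln3 (0.743) and Egln3 and Ankrd37 (0.757), and the farthest was Vegfa and P4ha1 (1.80). The median distance of 15672 genes from Hif1a was 1.41. The genes most like Egln3 were Dhcr7, the last enzyme of cholesterol synthesis (0.434), Lrp12 (0.469) and Slc35f2 (0.478), and those most like Egln1 were Slc35f2 (0.421), Dhcr7 (0.439) and Atp23 (0.455). Nearest to Hif1a were Ipo7, a nuclear import receptor gene (0.309), Pus3 (0.359) and Fyttd1 (0.368). Nearest to Vegfa were Itpripl2 (0.438), Rnf130 (0.472) and Ppp1r15b (0.481), and nearest to Bnip3 were Ubash3b (0.509), Arhgap32 (0.631) and Gm13830 (0.648). These distances describe 20 libraries in which the KO acute libraries weigh on every profile.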

How the data were processed

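The authors deposited 2 tables, 1 for each arm, in which every library has 1 column. The deposited unit is a signal, counts normalized by DESeq, and not raw reads. Per the submitters' processing notes, kallisto 0.46.0, genome build GRCm39 and DESeq were used. The annotation, the summing of transcripts to genes and the filters of the authors were not given in the sources used here. Each table was scaled on its own, so tests were made within a table. Of the low values 26.0 to 81.0% per library were within 0.1 of a whole multiple of a fitted step, so whole reads were not recovered and count tests were not run. No 2 libraries held identical values, and the depth in reads is unknown.

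Values were taken to log2(normalized count + 1). A fold change on this scale understates the change of low genes. Tests covered genes that reached 10 normalized counts in at least 4 acute or 5 survival libraries. Group means were modelled in R 4.3.3 by limma 3.58.1, using eBayes and a mean-variance trend. Two-sided p-values were adjusted (Benjamini-Hochberg) over every gene tested, with a threshold of 0.05. The difference between the arms was a contrast over all 20 libraries. The fit was tested on simulated data with known fold changes. Alternatives were other pseudocounts, filters, variance models and scalings, a marker score as covariate, a replicate block, 1 fit over all libraries and left-out libraries.

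The 10 genes, the pathway and marker lists and the tests were chosen with earlier results of these data known. Beside the 10 genes and Acly, the text names, per list and arm, the 6 called genes with the largest absolute log2 fold change and the 3 genes most like a described gene. Promoter windows are from RefSeq on GRCm38.p6. Figures were drawn with Python 3.11.15 and matplotlib 3.10.9.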

Additional observations from a re-analysis of the deposited data

Results flagged for a closer look

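Of 40 groups of values (10 genes in 4 groups), 2 held a library far from the others of its group, and chance gives about 1 in 20. Ddit4 had 11993 normalized counts in KO acute library 4, where the nearest of the other KO acute libraries had 6412 and the gap took 0.878 of the group's range. Kdm3a had 2048 normalized counts in WT acute library 2, where the nearest of the other WT acute libraries had 2416 and the gap took 0.658 of the range.

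The effect of KO against WT differed between the survival and the acute arm, by limma's test of the difference itself, for 7 of the 10 genes. Of all 15673 genes tested for this difference 20.2% were called, 9.39% higher and 10.9% lower. The survival effect less the acute effect was 0.32 (log2) for Hif1a, 0.34 for Egln1, 0.75 for Egln3, 0.42 for P4ha1 and 0.34 for Kdm3a, and -1.64 for Vegfa and -1.24 for Bnip3. The adjusted p-values were 0.0438, 0.00719, 0.000566, 0.0411, 0.0362, 0.0405 and 0.0481 in that order. Only the calls of Egln1 and Egln3 held whichever single library was left out. Each of the other calls was lost on leaving out any 1 of 10 to 16 of the 20 libraries. The arms also differ in the time from tamoxifen to collection, in the stage of leukemia at treatment and in how far the marker score of other cell types separates KO from WT, and these cannot be told apart here.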

How the results depend on the processing

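In the acute arm the count of 8 called genes was 4 after T-lineage scaling (1 lower), 0 with the marker score as covariate (0 higher, 0 lower, 0 over all genes), and 3 without both KO libraries 2 and 3 (1 higher, 2 lower, 2137 over all genes). With a filter of 50 normalized counts 1 was higher, as Bnip3 was not tested. Over all genes the count of 5140 was 7949 after T-lineage scaling. Leaving out 1 library gave 6 to 9 called, 2 to 2 higher, 4 to 7 lower and 3693 to 5444 over all genes. In the survival arm the 2 called genes over all genes were 4 with the filter of 50, 4 with robust eBayes, 1 after T-lineage scaling, 5 with the covariate, 29 in 1 fit over all libraries and 1 to 24 without 1 library, with 0 to 0 of the 10 genes called. For the difference between the arms the 7 called genes (5 higher, 2 lower) were 3 without a filter (2 and 1), 2 without a variance trend (2 and 0), 3 after T-lineage scaling (1 higher; 5734 over all genes), 0 with the covariate (0 and 0; 1 over all genes) and 2 without both KO libraries (2 and 0; 1262 over all genes). Those lower were 1 with the filter of 50 and 0 after quantile normalization. Without 1 library 2 to 7 were called, 2 to 5 higher, 0 to 2 lower, and 2239 to 3585 over all genes.

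Signs that turned in the acute arm were, after T-lineage scaling, Hif1a 0.19, Egln1 0.16, Ndrg1 0.27, Kdm3a 0.071 and Elob 0.22, and with the covariate, Hif1a 0.012, Ndrg1 0.17, Hk2 -0.11, Gys1 -0.058 and Hmox1 -0.41. In the survival arm, where none was called, leaving out 1 library moved Bnip3 over -0.36 to 0.087 (positive without WT library 4), Vegfa over -0.40 to 0.15 (positive without KO library 4 or WT library 2) and P4ha1 over -0.018 to 0.12 (negative without KO library 5 or WT library 2 or 5). For the difference they were Hif1a -0.066, Egln1 -0.043, Ddit4 -0.12 and Kdm3a -0.044 after T-lineage scaling, and Ddit4 -0.18 with the covariate and -0.0030 without both KO libraries. The cause was not tested.

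The replicate numbers were not taken to pair the libraries. With the group mean of each gene removed, same-numbered KO and WT libraries correlated at 0.09, 0.12, -0.07 and 0.14 in the acute arm. In the survival arm these correlations were -0.02 to 0.13. The WT library most like a KO library had the same number for KO acute library 1 and for no other. These values do not settle whether the numbers mark pairs. With the replicate block 8 of the 10 genes were called in the acute arm, with Ddit4 (-0.48, adjusted p = 0.00313) in and Hif1a (adjusted p = 0.0875) out, and 3294 over all genes. In the survival arm 0 were called, and 4 for the difference (3 higher, 1 lower), beside 15.1% of all genes for the difference. The depth in reads is not known, so no counting error is given for the low genes Bnip3, Vegfa and Ankrd37.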

Other observations

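The prolyl hydroxylase, subunit and target genes were set side by side between the arms without a test, since each table was normalized separately. Ndrg1 had 1339 to 2621 normalized counts in WT survival libraries and 922 to 1327 in WT acute libraries, so that all WT survival values were above all WT acute values, as were the KO survival values (2168 to 2892) above the KO acute values (975 to 1173). How many of all genes stood apart between the arms in this way was not computed. The separation is therefore not read as particular to Ndrg1. For Hif1a the WT survival range of 2381 to 3355 enclosed the WT acute range of 2661 to 2943. The spread between WT libraries, as a coefficient of variation, was wider in the survival arm than in the acute arm for 7 of the 10 genes, among them Hif1a (15% against 3.62%), Egln1 (8.54% against 2.61%) and Ndrg1 (24.5% against 12%). It was narrower in the survival arm for Ddit4 (19.4% against 24.4%), Kdm3a (7.59% against 8.35%) and Ankrd37 (29.8% against 31.5%). The share of all genes with a wider spread in the survival arm was not computed, so these counts are not read as particular to the 10 genes.

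Epas1, which encodes the other main HIF alpha subunit and was chosen for mention after its values were seen, had 1704 ± 654 normalized counts in KO survival and 978 ± 229 in WT survival libraries (SD, n = 5 each). It was not called (log2 fold change 0.75, adjusted p = 0.312), with 3 of the 5 KO libraries above all WT libraries. In the acute arm Epas1 had 945 ± 53.3 in KO and 932 ± 96.7 in WT libraries (log2 fold change 0.03, adjusted p = 0.849). Elob had 1796 ± 114 normalized counts in KO survival and 2103 ± 110 in WT survival libraries, without overlap, and was not called (log2 fold change -0.23, adjusted p = 0.261). In the survival arm KO lay wholly below WT for 2 of the 10 tested genes of its list and for 0.793% of all genes.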
